A study of Mus musculus with 8 samples.

Results

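*Aire* and *Pfkl* lie next to each other on mouse chromosome 10, and both were highest in the Control libraries and lowest in the libraries labelled CypD OE. They are described here with the 6 genes *Trpm2*, *Dnmt3l*, *Icosl*, *Pwp2*, *Trappc10* and *Agpat3* that lie around them, 8 of the 55414 genes in the table. *Aire* and *Pfkl* were chosen by their measured values in these libraries, so their levels and differences are a description without a test. The other 6 were chosen by position, and those with enough signal were tested.

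RNA was sequenced from B16F10 cells, a mouse melanoma line, in 4 groups of 2 libraries. WT and CypD KO cells were kept at 21% O2 and stable Control (empty pcDNA) and CypD OE (pcDNA carrying CypD) cells at 1% O2, in each case for 24 h. CypD is cyclophilin D, the mitochondrial matrix isomerase encoded by *Ppif* that regulates the permeability transition pore. The knockout was made with CRISPR/Cas9 and the stable lines by drug selection, so each group may stand for few clones, and between Control and WT the oxygen level and the selected vector line cannot be told apart. Between CypD OE and WT the oxygen level, the selected line and the carried CypD cannot be told apart. No source used here says that both libraries of a group came from separate cultures, so the p-values measure only the spread between these libraries, which may be technical.

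The targeted gene *Ppif* had 50.68 and 49.99 TPM in the WT libraries against 10.4 and 12.1 in the CypD KO libraries (log2 difference −2.07 ± 0.07 SE, limma adjusted p = 3.81e-06). TPM is the relative abundance of a gene's transcripts, corrected for their length. Its level in Control was 44.6 and 42.3 TPM, and in CypD OE 50.3 and 49.3 TPM (0.19 ± 0.07 SE, limma adjusted p = 0.0794), so directions in that comparison rest on the labels. All 6 melanocyte markers were present in every library. In bulk samples such as these, fewer cells with a transcript and less of it per cell cannot be told apart.

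AIRE, the autoimmune regulator, is a nuclear protein of medullary thymic epithelial cells that releases transcription of many tissue-restricted genes, so that developing T cells meet their products. PFKL is the liver-type subunit of phosphofructokinase 1, the enzyme that commits glucose carbon to glycolysis, and its gene is a known target of the hypoxia-inducible factors (HIFs). Neighbouring genes can share chromatin and regulatory sequence, and can also be regulated apart.

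In the mouse assembly GRCm39, *Pfkl* occupies chr10:77818084-77845922 and *Aire* chr10:77865321-77879444, both on the minus strand. In the direction of transcription *Aire* comes first, with 19.4 kb between its end and the start of *Pfkl*. *Dnmt3l* (chr10:77877781-77899456, plus strand) overlaps the start of *Aire* by 1664 bases on the opposite strand, and *Icosl* follows it (chr10:77905136-77919747, plus strand). On the other side of *Pfkl* lies *Trpm2* (chr10:77743556-77806405, minus strand). *Pwp2* (chr10:78006735-78021026) and *Trappc10* (chr10:78021489-78080510) are 462 bases apart, and *Agpat3* (chr10:78105003-78208987) is the farthest, all 3 on the minus strand.

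The sequences at the starts of *Aire* and *Pfkl* are shown because both genes moved together and because *Pfkl* belongs to the HIF targets. HIFs bind the core letters ACGTG or GCGTG, which were searched on both strands in the 250 bases before each RefSeq start. The windows of all 8 genes were available (10 windows, RefSeq table of GRCm38.p6, each placed in GRCm39 by its unique exact match). Capitals mark core letters, and the *Aire* window held none. For *Pfkl*, only the 25 bases around its single match are printed, since longer GENCODE transcripts place that window in their first exon.
Aire, chr10:77879445-77879694, minus strand: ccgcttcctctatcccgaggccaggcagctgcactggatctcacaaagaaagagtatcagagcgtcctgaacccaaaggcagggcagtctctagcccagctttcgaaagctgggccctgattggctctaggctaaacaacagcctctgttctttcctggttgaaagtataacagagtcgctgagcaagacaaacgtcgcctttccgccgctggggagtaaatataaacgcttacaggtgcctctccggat
Pfkl, chr10:77845726-77845750, minus strand: ttgtagactgGCGTGcgctccgcct

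The match in *Pfkl* was GCGTG, beginning 99 bases before the RefSeq start. Over 32851 RefSeq windows of the same length, 38.6% held either form, 16.6% ACGTG and 28.2% GCGTG, so a match is common and says nothing by itself about binding. The windows of *Icosl* and *Pwp2* held no match, and those of *Trpm2* and *Agpat3* held 1 each. The *Trappc10* window held 4 matches, of which 2 were the overlapping strands of 1 palindrome. Of the 3 *Dnmt3l* windows, 1 held none.

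*Pfkl* was measured in WT at 25.3 and 23.6 TPM, in CypD KO at 113 and 109 TPM, in Control at 175 and 193 TPM, and in CypD OE at 12.6 and 12.4 TPM. No group overlapped another, and the order was Control, CypD KO, WT and CypD OE. The mean level was 4.53 times as high in CypD KO as in WT, 7.54 times as high in Control as in WT, and 14.8 times as high in Control as in CypD OE. WT cells at 21% O2 held 1.96 times the level of CypD OE cells at 1% O2.

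*Aire* was measured in WT at 0.14 and 0 TPM, in CypD KO at 1.43 and 1.24 TPM, in Control at 25.9 and 33.2 TPM, and at 0 TPM in both CypD OE libraries. The order was Control, then CypD KO, then WT and CypD OE, which overlapped at 0. From the steps between low TPM values, these levels correspond to about 605 and 834 fragments in Control, 37.6 and 30.6 in CypD KO, and 3.5 and 0 in WT. In the CypD OE libraries 3 fragments would have been worth 0.11 and 0.108 TPM. *Aire* therefore passed from a level at or near the limit of detection to that of a moderately expressed gene. The Control mean of 29.6 TPM was 22.1 times the CypD KO mean of 1.34 TPM, and no fold is given against WT or CypD OE, where libraries were listed at 0.

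**Figure D1:**
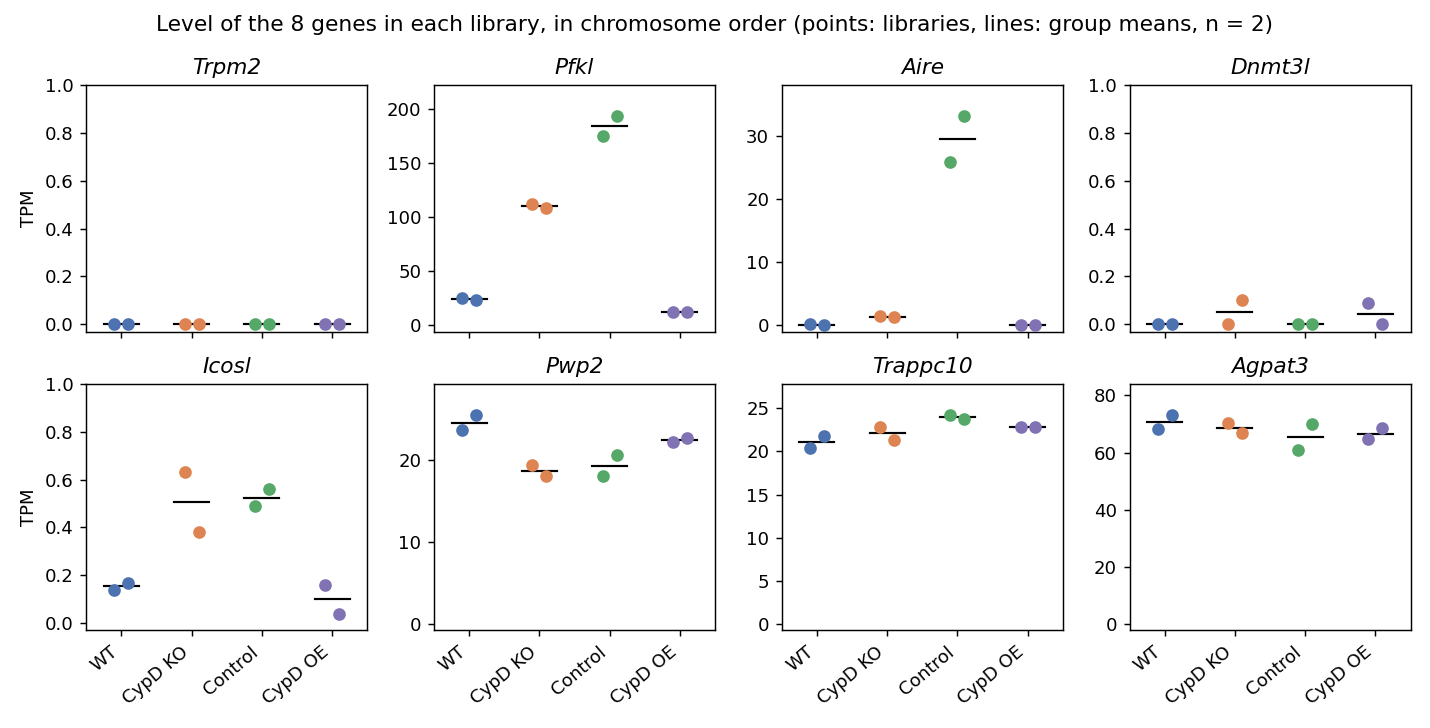
TPM of the 8 genes (vertical axes, each from 0 on its own linear scale) in the 4 groups (horizontal axes), in chromosome order. Points are libraries and lines are means of the 2 libraries; *Pfkl* and *Aire* peak in Control, *Icosl* stays under 1 TPM, *Trappc10* and *Agpat3* vary little between groups, and *Pwp2* is lower in CypD KO and Control than in WT.

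Markers of cell types moved along with these groups. The 6 melanocyte markers summed to 15426 and 15523 TPM in WT, 12244 and 12400 TPM in CypD KO, 20208 and 20747 TPM in Control, and 13312 and 13488 TPM in CypD OE. All 6 were called higher in Control than in WT, against 12.1% of all genes. The 6 markers did not move as one in CypD KO against WT, where 30.1% of all genes were higher and 18.4% lower. There *Tyr*, the tyrosinase of melanin synthesis, was higher (37.4 and 41.3 against 167 and 147 TPM, log2 difference 1.97) and 4 were lower. Of 11 markers of other cell types, 4 were at 0 in every library, and their sum was 19.0 to 22.3 TPM in WT, 58.1 to 60 TPM in CypD KO, 24.7 to 26.5 TPM in Control and 11.5 to 12.7 TPM in CypD OE. Within this sum, *Cd68* (2.36) and *Postn* (1.91) were higher and *Col1a2* lower (−1.79) in CypD KO than in WT on the log2 scale. All 3 were lower in CypD OE than in Control, against 18.3% of all genes. The part of these markers in the levels of *Aire* and *Pfkl* was not tested.

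*Aire* shared the order of *Pfkl* for Control, CypD KO and WT, but WT and CypD OE were not separated by *Aire*, and *Aire* was not in proportion to *Pfkl*. Between CypD KO and Control, *Pfkl* differed 1.67-fold in mean TPM while *Aire* differed 22.1-fold. Per 100 TPM of *Pfkl*, *Aire* was at 14.8 and 17.2 TPM in Control, 1.27 and 1.14 TPM in CypD KO, 0.554 and 0 TPM in WT, and 0 TPM in both CypD OE libraries. The 2 Control libraries thus held over 10 times as much *Aire* for the same *Pfkl* as any other library. *Pfkl* remained expressed at 12.4 TPM or more in the libraries where *Aire* was listed at 0.

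**Figure D2:**
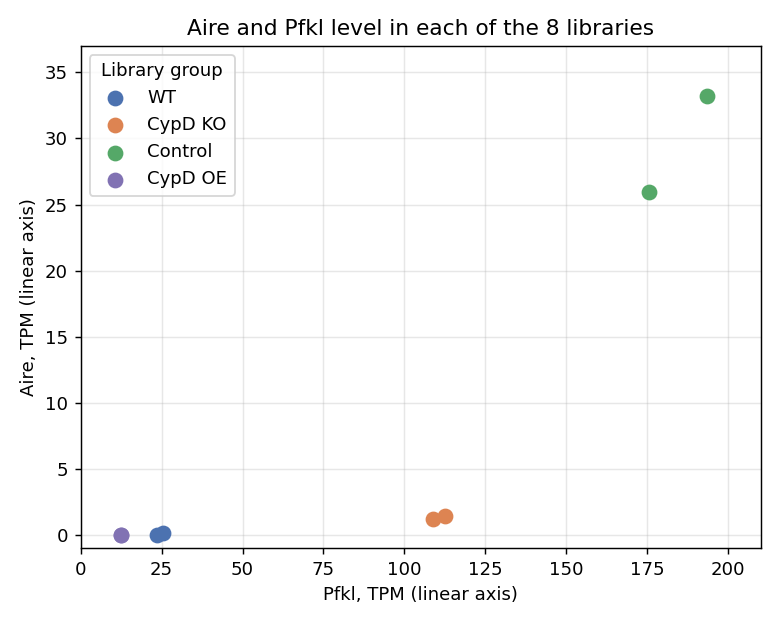
*Aire* level (vertical axis, TPM) against *Pfkl* level (horizontal axis, TPM) in the 8 libraries, both axes linear and each point a library coloured by group. The CypD KO libraries lie at 109 and 113 TPM of *Pfkl* but under 2 TPM of *Aire*, and only the 2 Control libraries rise above 25 TPM of *Aire*.

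On the log2(TPM + 1) scale used for the tests, which understates changes of low genes, *Aire* differed by 1.13 in CypD KO against WT, by 4.83 in Control against WT and by −4.92 in CypD OE against Control. *Pfkl* differed by 2.13, 2.87 and −3.78 in the same comparisons. Of the 13526 genes that reached 1 TPM in 2 libraries, *Aire* was the 2nd highest by difference in Control against WT and the 5th lowest in CypD OE against Control, but only the 856th highest in CypD KO against WT. *Pfkl* was 16th, 19th and 160th in those orders. Between CypD OE and WT the differences were −0.09 for *Aire* and −0.92 for *Pfkl*. CypD KO and Control were both compared with WT, and CypD OE and WT both with Control, so these comparisons share libraries and are not independent of each other.

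The other 6 genes did not form a block around the pair. *Trpm2*, a calcium channel opened by ADP-ribose and oxidative stress, was listed at 0 TPM in all 8 libraries. *Dnmt3l*, the catalytically inactive partner of the de novo DNA methyltransferases, was at 0.1 TPM in 1 CypD KO library, at 0.09 TPM in 1 CypD OE library and at 0 TPM in the other 6, which corresponds to at most 1.6 fragments. It was thus at 0 in both Control libraries, although it overlaps *Aire*. Whether the authors' counting used strand is not given in the sources used here, and without it reads from the overlap cannot be assigned to either gene.

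*Icosl*, the ligand of the T-cell costimulator ICOS, had the same direction as *Aire* and *Pfkl* at a far lower level. It was at 0.14 and 0.17 TPM in WT, 0.63 and 0.38 TPM in CypD KO, 0.49 and 0.56 TPM in Control, and 0.16 and 0.04 TPM in CypD OE. CypD KO and Control did not overlap WT or CypD OE, but the values rest on 1.3 to 19.1 fragments per library. How many of all genes separate the groups in this way was not counted, so the separation is not a result about *Icosl*. It did not reach the 1 TPM required for the main test. In the fit without that requirement (24706 genes), its log2 difference was 0.38 ± 0.10 SE in CypD KO against WT (limma adjusted p = 0.0444), a fit in which 16.5% of all genes were called higher. The difference was −0.47 ± 0.10 SE in CypD OE against Control (limma adjusted p = 0.0277), where 9.04% of genes were called lower, and 0.40 ± 0.10 SE in Control against WT (limma adjusted p = 0.0701).

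Of these 6 genes, *Pwp2*, *Trappc10* and *Agpat3* passed the filter on low values. At a limma adjusted p under 0.05 over all 13526 genes, none of the 3 was called higher in any of the 4 comparisons, against 30.1% of all genes in CypD KO against WT, 19.0% in CypD OE against Control, 12.1% in Control against WT and 14.0% in CypD OE against WT. *Pwp2* was called lower in CypD KO and in Control against WT, where 18.4% and 12.1% of all genes were lower. None was called lower in CypD OE against Control or WT, against 18.3% and 13.7%. Between CypD KO and WT the split of all calls depends on the scaling, with 4066 genes higher and 2486 lower on TPM as deposited and 3187 and 3482 after rescaling by median-of-ratios size factors.

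*Pwp2*, a WD-repeat protein of the UTP-B complex that assembles early small ribosomal subunits, was at 23.7 and 25.5 TPM in WT, 19.5 and 18.0 TPM in CypD KO, 18.1 and 20.7 TPM in Control, and 22.2 and 22.8 TPM in CypD OE. Both CypD KO and both Control libraries were below both WT libraries, the opposite of *Pfkl* and *Aire*. The log2 difference was −0.37 ± 0.08 SE in CypD KO against WT (limma adjusted p = 0.00973) and −0.33 ± 0.08 SE in Control against WT (limma adjusted p = 0.0304). The means in CypD KO and Control were 76.2% and 78.7% of that in WT. Against Control, CypD OE differed by 0.21 ± 0.08 SE (limma adjusted p = 0.0940). The call in CypD KO was lost without WT replicate 2 (limma adjusted p = 0.0572) and without CypD KO replicate 2 (limma adjusted p = 0.0591). The call in Control was kept in 8 of 15 alternatives, with limma adjusted p from 0.0193 to 0.135. It was lost without either WT library (0.0629 and 0.135), without Control replicate 1 (0.132) and without either CypD OE library (0.0529 and 0.0530), as well as with the 4 libraries of the comparison alone (0.0942) and without the filter (0.0612).

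*Trappc10*, a subunit of the TRAPP II complex of vesicle traffic, ends 462 bases from the start of *Pwp2* and did not share its direction. It was at 20.4 and 21.8 TPM in WT, 22.9 and 21.4 TPM in CypD KO, 24.2 and 23.7 TPM in Control, and 22.8 TPM in both CypD OE libraries. The largest of its log2 differences was 0.18 ± 0.06 SE in Control against WT (95% interval 0.03 to 0.33, limma adjusted p = 0.0877).

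*Agpat3*, an acyltransferase that makes phosphatidic acid for membrane lipids, had levels of 68.2 and 73.1 TPM in WT, 70.4 and 66.9 TPM in CypD KO, 61.1 and 69.9 TPM in Control, and 64.7 and 68.5 TPM in CypD OE. The ranges of all groups overlapped. Its log2 difference was −0.04 in CypD KO against WT (95% interval −0.22 to 0.14), 0.03 in CypD OE against Control (−0.15 to 0.20) and −0.11 in Control against WT (−0.29 to 0.07). These intervals leave room for a change of either sign, but not for one of the size seen in *Pfkl*.

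The surroundings were then widened to 500 kb on each side of *Pfkl*. Apart from *Pfkl* and *Aire*, 69 genes of the table lie there, 45 of them were at 0 in every library, and 15 passed the filter. None of the 15 reached a log2 difference of 1 in either direction in any of the 4 comparisons. The farthest from 0 were *Gm10146* (−0.97, limma adjusted p = 0.0829) and *Cstb* (0.82, limma adjusted p = 8.48e-06), both in CypD KO against WT. In that comparison 1 gene passed 1 with a pseudocount of 0.1 and 1 after rescaling. In CypD KO against WT, 4 were called higher (*Pttg1ip*, *Ube2g2*, *Gatd3a*, *Cstb*) and 4 lower (*Fam207a*, *Sumo3*, *Pwp2*, *Rrp1*), with a median of −0.04 against 0.09 over all genes tested. The shares of all genes called were 30.1% and 18.4%, so 4 of 15 in each direction was near the background. These genes, and those named next, were chosen after their values were seen. In CypD OE against Control, *Rrp1* was called higher and *Cfap410* and *Pdxk* lower, in Control against WT *Pttg1ip* was higher and *Pwp2* and *Rrp1* lower, and in CypD OE against WT *Pttg1ip* and *Ube2g2* were higher and *Pdxk* lower. The shares of all genes called higher and lower were 19.0% and 18.3%, 12.1% and 12.1%, and 14.0% and 13.7% in these comparisons. The medians in those comparisons were −0.001, 0.048 and −0.05, against 0.002, 0.012 and 0.006 over all genes tested.

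*Cfap410*, a cilium gene, is the tested gene nearest to *Pfkl* and overlaps its far end by 5600 bases on the opposite strand. It was at 20.6 and 23.9 TPM in WT, 15.4 and 19.2 TPM in CypD KO, 25.3 and 32.0 TPM in Control, and 19.0 and 20.2 TPM in CypD OE. It was lower in CypD KO than in WT, where *Pfkl* was higher, by values that did not pass the test (log2 difference −0.35 ± 0.14 SE, limma adjusted p = 0.0867). In CypD OE it was lower than in Control (−0.52 ± 0.14 SE, limma adjusted p = 0.0296), as was *Pfkl*, and reads of the overlap cannot be assigned without strand.

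**Figure D3:**
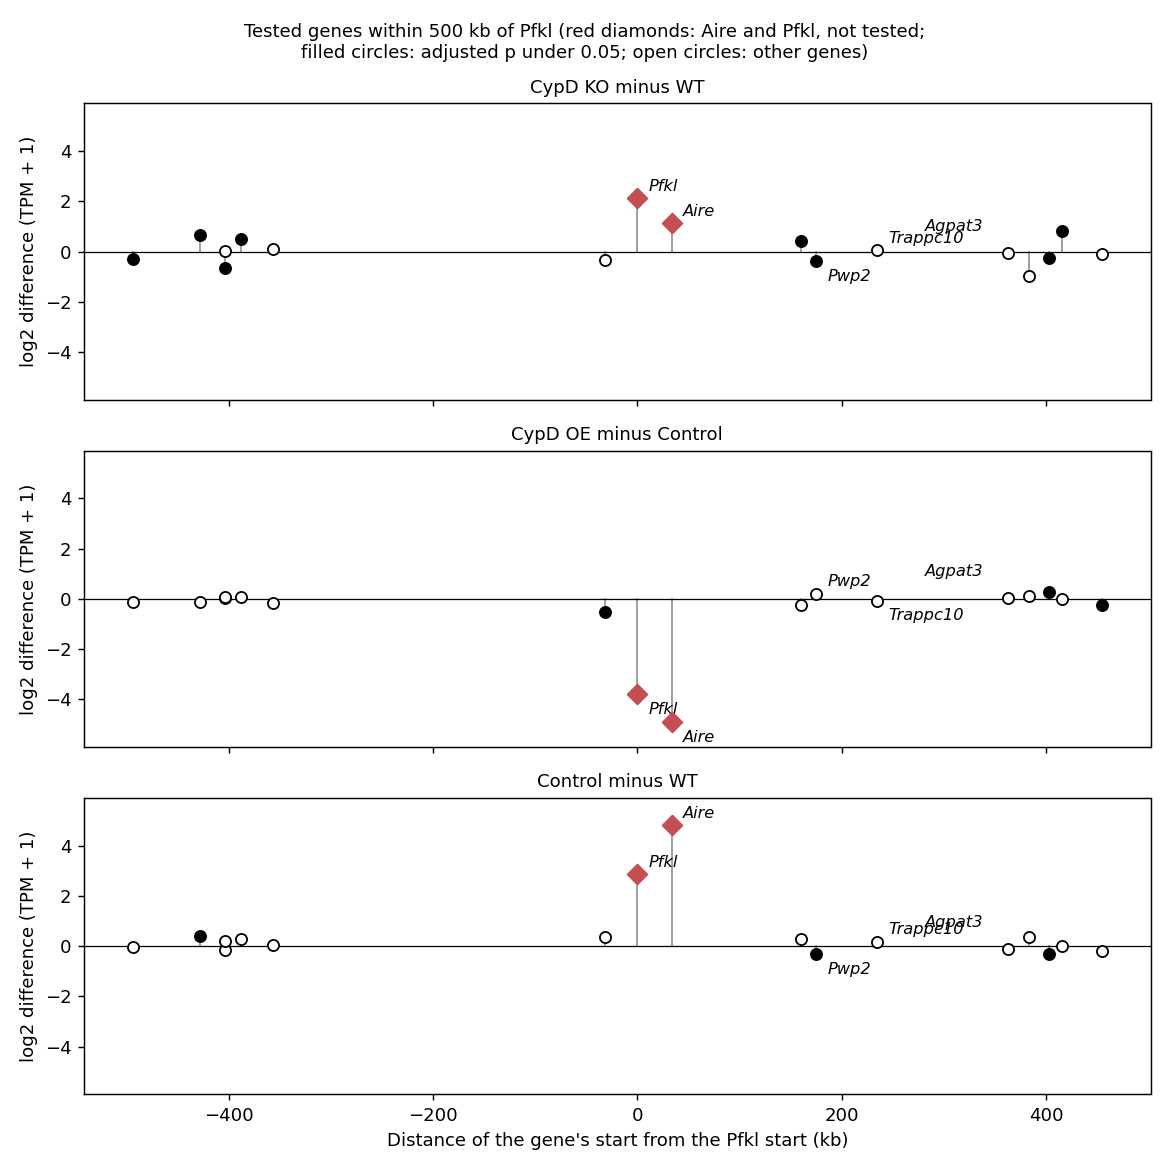
log2 difference on the TPM + 1 scale (vertical axes) of the 17 genes within 500 kb of *Pfkl* that passed the filter, against the distance in kb of each gene's start from that of *Pfkl* (horizontal axis), for 3 comparisons. Red diamonds are *Aire* and *Pfkl*, which were not tested, filled circles are genes with an adjusted p under 0.05 and open circles are the others; only the diamonds lie beyond 1 in either direction.

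To see how often adjacent genes moved together among all tested genes with a position, each gene called with a log2 difference over 1 was paired with its nearest tested gene on the chromosome. The nearest gene was also so called for 168 of 1006 genes higher in CypD KO than in WT (16.7%), against 7.46% of all tested genes with a position, for 14 of 180 higher in Control than in WT (7.78% against 1.34%), and for 37 of 380 lower in CypD OE than in Control (9.74% against 2.82%). The nearest tested gene of *Aire* is *Pfkl*, whereas that of *Pfkl* is *Cfap410*. Nearest pairs also include genes that overlap or share reads, and no test was made of these shares. Some tested genes, such as *Lpin3* and *Gpat3* in CypD KO, passed the filter only through the group where they were high. Their calls rest on the group that admitted them. *Aire* and *Pfkl* may themselves be counted in the shares for Control and CypD OE, so these shares say nothing about the pair.

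Among all genes tested, the 5 whose profile over the 8 libraries was nearest to *Pfkl* were *Prelid2*, *Fam162a*, *Pdk1*, *Ddit4* and *Ak4*. Nearness was the root mean square difference of log2(TPM + 1) after each gene's mean was subtracted, and for these genes it was 0.30, 0.35, 0.40, 0.40 and 0.46. *Pdk1*, the kinase that holds back pyruvate dehydrogenase, was at 7.35 and 7.26 TPM in WT, 63.4 and 60.4 TPM in CypD KO, 101 and 113 TPM in Control, and 6.6 and 3.19 TPM in CypD OE. It is a known HIF target, as are *Ddit4*, an inhibitor of mTORC1 signalling, and *Ak4*, a mitochondrial adenylate kinase. *Aire* was 190th of 13525 genes by nearness to *Pfkl* (1.09), while *Pfkp* was 27th (0.76), *Trappc10* 5444th, *Agpat3* 7195th and *Pwp2* 11101st.

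The 5 nearest to *Aire* were *Kbtbd11* (0.57), *Gm14461* (0.83), *Loxl2* (0.93), *Prelid2* (0.94) and *Snora33* (1.05), and *Pfkl* was 8th (1.09). *Kbtbd11* was at 18.4 and 18.9 TPM in Control, 4.37 and 2.65 TPM in CypD KO and at most 0.49 TPM in the other 4 libraries. *Loxl2*, a lysyl oxidase that crosslinks collagen, was at 29.3 and 31.3 TPM in Control, 11.6 and 12.3 TPM in CypD KO and at most 0.7 TPM elsewhere. *Snora33*, a short RNA, differed between replicates, with 13.7 and 0 TPM in CypD KO. *Prelid2* stands in both lists. The place of *Aire* depended on the constant added before the logarithm, and with 0.1 in place of 1 it fell to 12307th by nearness to *Pfkl*, with *Pfkl* 15th by nearness to *Aire*. Of the 5 genes nearest to *Pfkl* and the 5 nearest to *Aire*, 3 each were still among the 5 nearest at that setting.

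**Figure D4:**
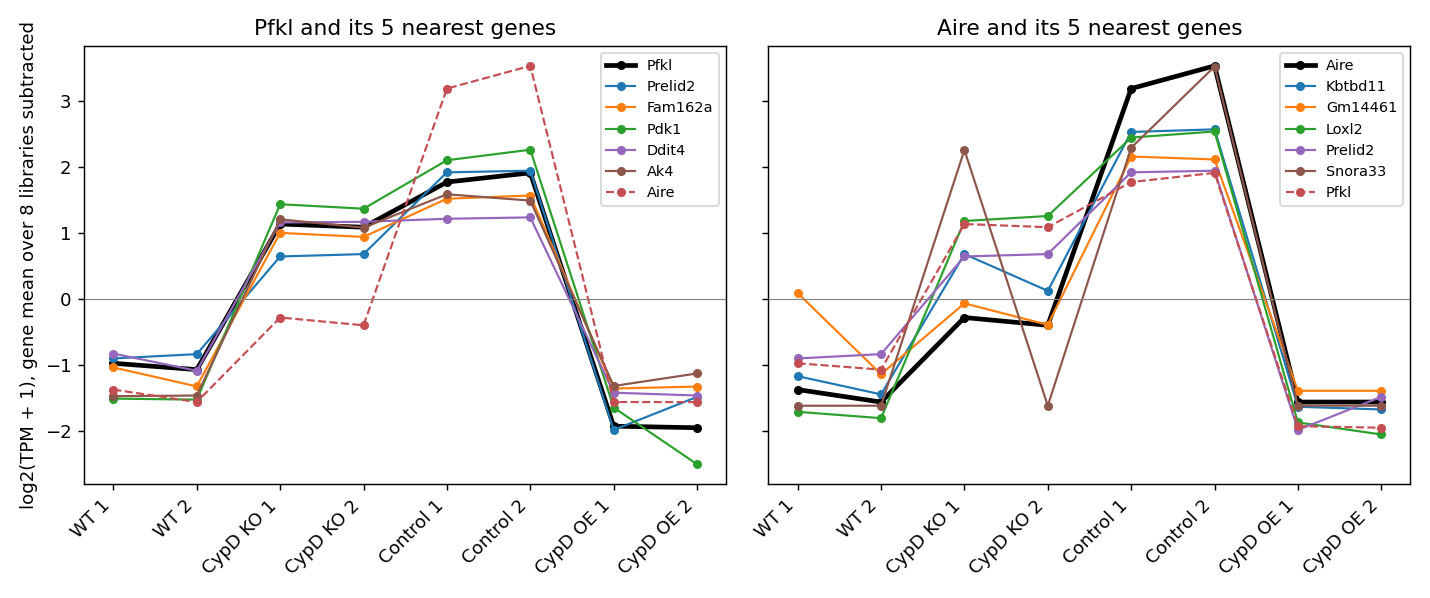
log2(TPM + 1) with each gene's mean over 8 libraries subtracted (vertical axis) in each library (horizontal axis), for *Pfkl* with its 5 nearest genes (left) and *Aire* with its 5 nearest (right). The thick black line is the named gene and the dashed red line the other of the pair; in CypD KO *Pfkl* sits nearer to its Control level than *Aire* does.

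A level of 20 TPM or more in both Control libraries with under 0.2 TPM in every WT and CypD OE library was found for 2 genes of the table, *Aire* and *Gm23455*, a pattern set after the values were seen. *Gm23455* was uneven between replicates (156 and 62.7 TPM in Control and 23.1 and 0 TPM in CypD KO).

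The genes that act with AIRE were examined from lists compiled by hand. Of 13 markers of medullary thymic epithelium, 8 were at 0 in every library, among them *Fezf2*, *Epcam*, *Krt5* and *Krt14*. *Epcam*, *Krt5* and *Krt14* are also counted among the markers of other cell types above. The summed level of the 13 markers was 10.3 to 10.9 TPM in WT, 6.52 to 6.82 TPM in CypD KO, 5.75 to 6.58 TPM in Control and 5.8 to 6.7 TPM in CypD OE. Most of it was *Ly75*, an endocytic receptor. *Ly75* was lower than in WT in CypD KO (log2 difference −0.67), Control (−0.79) and CypD OE (−0.68). Of all genes, 18.4%, 12.1% and 13.7% were lower in these comparisons. Between CypD OE and Control *Ly75* was not called (0.115). Apart from *Ly75*, no marker of the list exceeded 0.71 TPM in any library.

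Of 10 tissue-restricted genes known to depend on AIRE in the thymus, 9 are in the table, and all 9 were at 0 TPM in both Control libraries, *Ins2*, *Tff3* and *Csn2* among them. *S100a8*, a calcium-binding protein of myeloid cells, was at 1.76 and 1.59 TPM in CypD KO and at 0 in the other 6 libraries (log2 difference 1.42). It passed the filter on low values only through the CypD KO libraries, so no test is given for it.

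Of 16 tested partners and inducers of AIRE, 5 were higher in Control than in WT and 1, *Ltbr*, was lower, where 12.1% of all genes were called in each direction. The largest differences were of *Jmjd6*, a hydroxylase (0.75 ± 0.04 SE, limma adjusted p = 5.15e-05), *Relb*, the NF-κB subunit through which *Aire* is induced in the thymus (0.62 ± 0.14 SE, limma adjusted p = 0.0208), and *Crebbp*, a histone acetyltransferase that binds AIRE (0.41 ± 0.10 SE, limma adjusted p = 0.0271). Against Control, 2 were higher and 5 lower in CypD OE, against 19.0% and 18.3% of all genes. *Jmjd6* was lower (−0.94 ± 0.04 SE, limma adjusted p = 8.01e-06), as were *Relb* (−0.49), *Prkdc* (−0.37), *Crebbp* (−0.34) and *Nfkb2* (−0.33), the direction of *Aire*. *Ltbr*, the lymphotoxin β receptor upstream of *Relb* (0.74 ± 0.08 SE, limma adjusted p = 0.00061), and the kinase *Hipk2* (0.51 ± 0.07 SE, limma adjusted p = 0.00231) were higher, the opposite of *Aire*. In CypD KO against WT, 6 were higher and 1 lower, against 30.1% and 18.4% of all genes, a split that became 4 and 4 after rescaling. *Ltbr* had the largest difference there (1.10 ± 0.08 SE, limma adjusted p = 6.78e-05), followed by *Relb* (0.47) and *Atf7ip* (0.42). Their medians in these 3 comparisons were 0.11, −0.09 and 0.12.

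Among the genes of the phosphofructokinase step, *Pfkp*, the platelet-type subunit on another chromosome, moved most like *Pfkl*. It was at 36.9 and 36.6 TPM in WT, 112 and 106 TPM in CypD KO, 117 and 126 TPM in Control, and 37.8 and 33.4 TPM in CypD OE. It rose 2.96-fold in CypD KO (log2 difference 1.54 ± 0.07 SE, limma adjusted p = 9.49e-06) and 3.30-fold in Control (1.70 ± 0.07 SE, limma adjusted p = 2.53e-05) against WT. Its CypD OE libraries enclosed the range of WT, whereas *Pfkl* was lower in both CypD OE libraries than in WT. *Pfkm*, the muscle-type subunit, was at 16.1 and 15.4 TPM in WT, 15.8 and 18.3 TPM in CypD KO, 14.0 and 13.2 TPM in Control, and 9.39 and 10.1 TPM in CypD OE, and was lower in CypD OE than in Control (−0.44 ± 0.09 SE, limma adjusted p = 0.0095). *Tigar*, which lowers the activator of phosphofructokinase 1, was lower in Control than in WT (−0.41 ± 0.06 SE, limma adjusted p = 0.00433) and higher in CypD OE than in Control (0.50 ± 0.06 SE, limma adjusted p = 0.00108). Of the 7 tested genes of this step other than *Pfkl*, 1 was higher and 0 lower in CypD KO, 1 and 1 in Control against WT, and 1 and 2 in CypD OE against Control, against shares of all genes of 30.1% and 18.4%, 12.1% and 12.1%, and 19.0% and 18.3%.

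*Pwp2* had the direction of its complex. Of 15 other genes of UTP-B and the small subunit processome, 14 were lower in CypD KO than in WT (median −0.41), where 18.4% of all genes were lower, and 13 were lower in Control than in WT (median −0.37), where 12.1% were. None was higher in either. Between CypD OE and Control, 11 were higher and 1 was lower in CypD OE (median 0.33), against 19.0% and 18.3% of all genes. The largest falls in CypD KO were of *Fbl*, the rRNA methyltransferase fibrillarin (−0.94), and *Nop58*, its partner in box C/D particles (−0.69). After rescaling, the counts in these 3 comparisons were the same.

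*Trappc10* and *Agpat3* passed the test in no comparison, while some genes of their families did. Of 14 other TRAPP subunits, 9 were higher and none lower in CypD KO than in WT (median 0.33), or 6 and 1 after rescaling, against 30.1% and 18.4% of all genes. In turn, 3 were higher and none lower in Control than in WT (12.1% of all genes in each direction), and 2 were higher and 4 lower in CypD OE than in Control (19.0% and 18.3%). *Trappc6a* was called in all 3 (1.29, 1.00 and −1.12). Of 11 enzymes of the same lipid pathway as *Agpat3*, 4 were higher and 2 lower in CypD KO than in WT, shares near those of all genes (30.1% and 18.4%). *Lpin3*, a phosphatidate phosphatase (1.24), and *Gpat3*, a glycerol-phosphate acyltransferase (1.10), were the highest of the 4. *Lpin3* was at 1.82 and 1.53 TPM in CypD KO and at most 0.28 TPM in any other library. *Gpat3* was at 1.41 and 1.57 TPM in CypD KO and at most 0.27 TPM in any other library. Both passed the filter on low values only through CypD KO, so their calls rest on the group that admitted them. For Control against WT the counts among the 11 enzymes were 1 and 0 (12.1% of all genes in each direction). For CypD OE against Control they were 1 and 1 (19.0% and 18.3%).

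**Figure D5:**
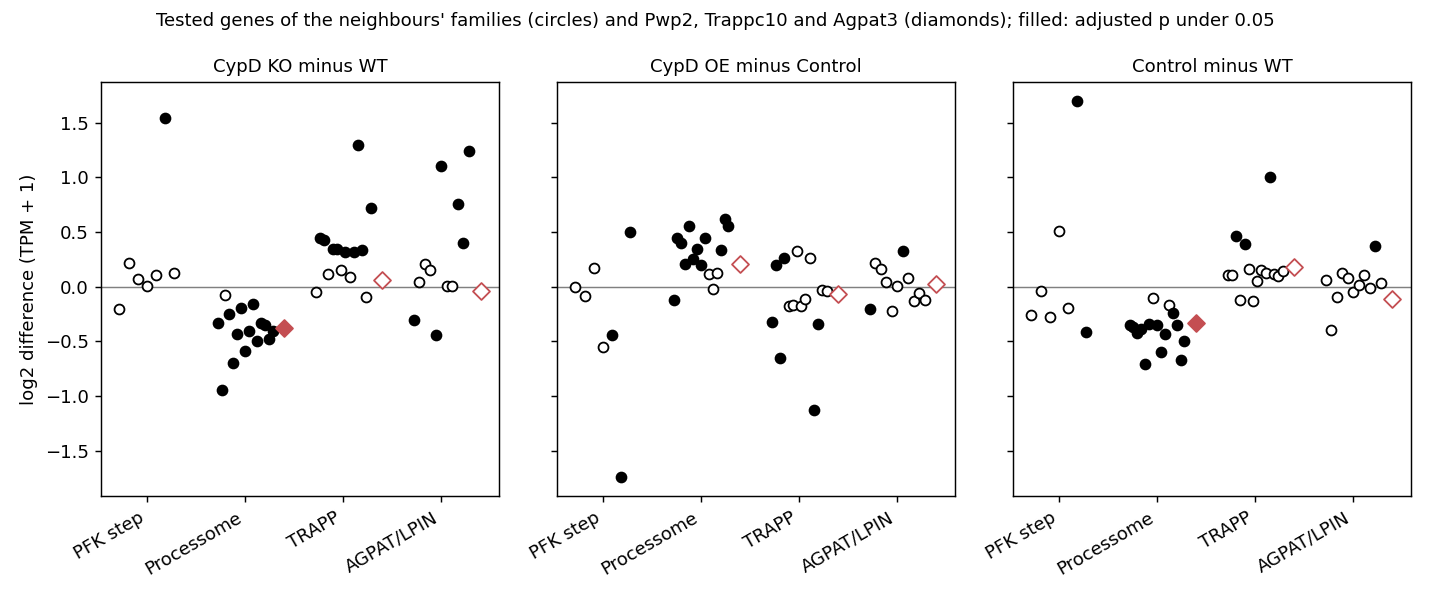
log2 difference on the TPM + 1 scale (vertical axis) of the tested genes in the families of *Pfkl*, *Pwp2*, *Trappc10* and *Agpat3* (horizontal axis), in 3 comparisons. Circles are family genes and diamonds *Pwp2*, *Trappc10* and *Agpat3*, filled where the adjusted p was under 0.05; 14 of 15 processome genes are filled and below 0 in CypD KO against WT, and *Pwp2* lies among them.

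The families of the genes near or at 0 held members that were expressed. *Trpm1*, the melanocyte channel of the same family as *Trpm2*, was at 150 and 145 TPM in WT, 44.3 and 38.4 TPM in CypD KO, 374 and 348 TPM in Control, and 9.28 and 10.9 TPM in CypD OE. It fell in CypD KO against WT (−1.81 ± 0.09 SE, limma adjusted p = 1.56e-05), unlike *Pfkl*, and in CypD OE against Control (−5.03 ± 0.09 SE, limma adjusted p = 5.02e-07). Of 3 tested channels of this family, 1 was higher and 1 lower in each of these 2 comparisons. *Dnmt3b*, an active de novo methyltransferase to which DNMT3L binds, was lower in CypD KO than in WT (−1.18 ± 0.13 SE, limma adjusted p = 0.000359). Of 4 tested genes of its list, 0 were higher and 2 lower there. In CypD OE against Control 1 was higher and 0 lower. *Cd276*, a B7-family relative of ICOSL, was higher in CypD KO than in WT (0.83 ± 0.14 SE, limma adjusted p = 0.00256). It was also higher in CypD OE than in Control (1.36 ± 0.14 SE, limma adjusted p = 0.000461), opposite to *Icosl*. *Cd274*, the only other tested gene of that family, was higher in CypD KO than in WT (0.62 ± 0.15 SE, limma adjusted p = 0.0120). In CypD OE against Control *Cd274* had the direction of *Icosl* but was not called (−0.26). Of all genes, 30.1% were called higher and 18.4% lower in CypD KO against WT. In CypD OE against Control the shares were 19.0% and 18.3%.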

How the data were processed

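RNA-seq of 8 libraries in 4 labelled groups was used. Per the submitters' processing notes and methods, libraries depleted of ribosomal RNA were trimmed (Cutadapt 3.4), aligned to GRCm39 (STAR 2.7.8a), quantified per gene (RSEM 1.3.1) and tested on counts (DESeq2 1.26.0). The authors deposited TPM, with an equal sum in all libraries and therefore no depth. Steps between low values gave about 25700000 to 30100000 fragments per library, with 83.2% to 86.3% of those values within 0.15 of a whole fragment. Every column was matched to a sample.

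Genes with 1 TPM in 2 libraries (13526) were fitted as log2(TPM + 1) with limma 3.58.1 (eBayes with trend, R 4.3.3), with 4 group means over 8 libraries and two-sided Benjamini-Hochberg adjusted p-values. Exact permutation of 2 against 2 libraries cannot go below 0.333 and was not used. Positions come from GENCODE, which held 98.8% of the genes. Python 3.11.15 was used for tables.

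The members, gene lists and tests were chosen with earlier results of these data known. Named are the members, *Ppif*, the 5 genes nearest to *Pfkl* and to *Aire*, genes within 500 kb called with a difference over 1, and in each list up to 3 called genes with the largest difference. Other genes were named after their values were seen (*Cfap410*, for its overlap). Alternatives were a pseudocount of 0.1, no filter or 5 TPM, median-of-ratios rescaling, 4-library fits, a replicate block, eBayes without trend, other windows and leaving out each library.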

Additional observations from a re-analysis of the deposited data

How the results depend on the processing

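The groups hold 2 libraries each, so the spread is estimated poorly, and levels of a few fragments (*Dnmt3l* in all libraries, *Icosl* and *Aire* in WT and CypD OE) are at the limit of this depth. Each TPM value is relative to the rest of its library. Replicate numbers did not pair the libraries (correlations of deviations from −0.03 to 0.108), and with a replicate block *Pwp2* differed by −0.37 in CypD KO and −0.33 in Control against WT, with both calls kept. Leaving 1 library of a group out assumes that the other varies like the remaining groups. The cause of the changes below was not tested.

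With a pseudocount of 0.1, *Aire* differed by 3.21 in CypD KO against WT, −8.20 in CypD OE against Control, 7.57 in Control against WT and −0.63 in CypD OE against WT, and *Pfkl* by −3.87 in CypD OE against Control. *Aire* became 12307th in likeness to *Pfkl*, and *Pfkl* 15th in likeness to *Aire*. After rescaling, *Pfkl* differed by 2.02 in CypD KO against WT and *Trappc10* by −0.044 (0.065 before). In both of these settings 1 gene within 500 kb passed 1 on the log2 scale in CypD KO against WT.

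Without single libraries, *Aire* ranged from 4.657 to 5.001 in Control against WT and from −5.10 to −4.75 in CypD OE against Control, and *Pfkl* from 2.79 to 2.93 and from −3.85 to −3.71. *Agpat3* ranged from −0.09 to 0.01 in CypD KO against WT and from −0.07 to 0.12 in CypD OE against Control. It turned to 0.008 without WT replicate 2, and to −0.069 and −0.013 without Control replicate 1 and CypD OE replicate 2.

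Genes called in Control against WT numbered 998 higher and 983 lower in the 4-library fit, and 939 to 1466 higher and 983 to 1434 lower without single libraries (1634 and 1635 with all). Between CypD OE and WT they numbered 1075 to 1785 higher and 1128 to 1773 lower (1891 and 1853 with all).

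Within 250 kb of *Pfkl*, 2, 1, 1 and 0 genes were called in CypD KO against WT, CypD OE against Control, Control against WT and CypD OE against WT, against 8, 3, 3 and 3 within 500 kb and 5 within 1000 kb in the last. The windows held 4, 15 and 20 tested genes. Of all genes, 30.1% and 18.4%, 19.0% and 18.3%, 12.1% and 12.1%, and 14.0% and 13.7% were called higher and lower in these comparisons. In Control against WT, 6 genes within 500 kb were called with a filter of 5 TPM. Between CypD OE and WT, 1 was called in the 4-library fit and 1 to 3 without single libraries, and in CypD OE against Control also 1 to 3. In CypD KO against WT, 0 to 1 passed 1 on the log2 scale without single libraries.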
